A study of Mus musculus with 4 samples.

Results

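Cd8a and Cd8b1 encode the α and β chains of the CD8 coreceptor, and both genes lie on mouse chromosome 6. The region described here ran from 20 kb outside Cd8b1 to 20 kb outside Cd8a, chr6:71302788-71399171 in mm10. Every Runx3 peak with its summit in that stretch was taken as a member, whatever its height. This gave 10 of the 13166 peaks of the anti-Runx3 ChIP list and 10 of the 15891 peaks of the anti-Runx3 CUT&RUN list. All libraries came from CD8 T cells of the spleens of adult wild type mice, isolated with magnetic beads against CD8a, the product of one of the genes in question. The ChIP library was made from 50000000 frozen cells of 5 mice, and the CUT&RUN library from 150000 fresh cells of 1 mouse, with the same rabbit antiserum at a dilution of 1 in 200. A whole cell extract served as the control of the ChIP peak calling, per the file headers, and the normal rabbit serum library of CUT&RUN was not analysed here. The files hold peak positions and no expression values, so the cell type was not checked against marker expression.

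CD8 is the coreceptor that binds major histocompatibility complex class I while the T cell receptor reads the peptide. It is made as an αβ heterodimer in conventional cytotoxic T cells, and as an αα homodimer in some other lymphocytes. Transcription of both genes is known to depend on a set of enhancers in and around the stretch between them, named E8I to E8V, which act at different stages of T cell development. E8I is active in mature CD8 T cells, and the RUNX transcription factor Runx3, on which CD8 T cells depend, is known to act through it. Runx proteins bind TGTGGT or TGCGGT together with their partner subunit, CBFβ.

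In the RefSeq table of GRCm38.p6, the assembly that mm10 stands for, Cd8b1 (gene ID 12526) spans 71322788 to 71337492 and Cd8a (gene ID 12525) spans 71373427 to 71379171. Both genes are known to be transcribed in the same direction, and Cd8b1 ends 35.9 kb before Cd8a starts. The table lists no gene in that gap. The span of the lncRNA gene Gm38828 reaches to 71322657, just before Cd8b1. Beyond Cd8a, the span of Rmnd5a runs from 71388634 to 71440637, past the edge of the region. Only the edge of a further gene, Gm1070, reaches into the region on the far side.

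Of the coreceptor genes, Cd8a had a promoter entry in the RefSeq sequence table (GRCm38.p6). That promoter is shown because a CUT&RUN peak lies on it. The window is chr6:71373177-71373476 on the plus strand, from 250 bases before the start of the gene to 50 after it. Capitals mark the RUNX motif, and the 6 capitals read TGCGGT on the minus strand.

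Cd8a promoter: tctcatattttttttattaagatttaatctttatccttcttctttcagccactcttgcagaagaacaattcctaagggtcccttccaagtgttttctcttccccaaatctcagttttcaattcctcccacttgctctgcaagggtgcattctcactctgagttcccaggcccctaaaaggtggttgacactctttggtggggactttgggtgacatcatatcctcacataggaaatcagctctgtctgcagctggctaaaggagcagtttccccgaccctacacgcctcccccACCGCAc

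The motif search covered TGTGGT and TGCGGT for RUNX, GGAAGT for ETS factors and TCACAC for T-box factors, on both strands. The only match was TGCGGT at 71373470 to 71373475, which begins 43 bases after the first base of the gene and 103 bases beyond the summit of the CUT&RUN peak, inside that peak. A RUNX motif of either spelling was present in 22.4% of the 32851 promoter windows of this length, an ETS motif in 23.8% and a T-box motif in 14.5%. RUNX motifs were present in 37.4% of the 3314 windows with a ChIP summit and in 29.4% of the 4676 windows with a CUT&RUN summit. A match to these letters is a description of the sequence and not a mapped site.

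For each peak the deposited lists give a summit and a pileup, the number of fragments over the summit after duplicate removal. The 95% intervals below are exact Poisson intervals of the pileup. They cover counting error only and not variation between libraries, since each assay had 1 library. The ChIP list rests on 9532996 fragments after a loss of 80.3% as duplicates, and the CUT&RUN list on 14068364 after a loss of 21.4%. The lists were called at different thresholds, q of 0.05 in ChIP and q of 1e-05 in CUT&RUN, so the ChIP threshold was the more lenient. There was 1 library per assay, so differences between assays have no replicate check and no test, and assay, mice, cell number and freezing cannot be told apart.

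ChIP peaks gathered in the gap between the coreceptor genes, which takes 35.9 of the 96.4 kb of the region. CUT&RUN peaks did so less. Neither list had a summit inside Cd8a, though the CUT&RUN peak with its summit 60 bp before the start reaches into the gene. The gap held 8 of the 10 ChIP summits, and the other 2 lay on the far side of Cd8b1. In CUT&RUN, 5 of the 10 summits lay in the gap, 3 on the far side of Cd8b1, 1 inside Cd8b1 and 1 beyond Cd8a. The peaks formed 6 overlapping pairs, 4 of them in the gap. The remaining 4 ChIP peaks were all in the gap, and the remaining 4 CUT&RUN peaks were spread over the region.

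**Figure D1:**
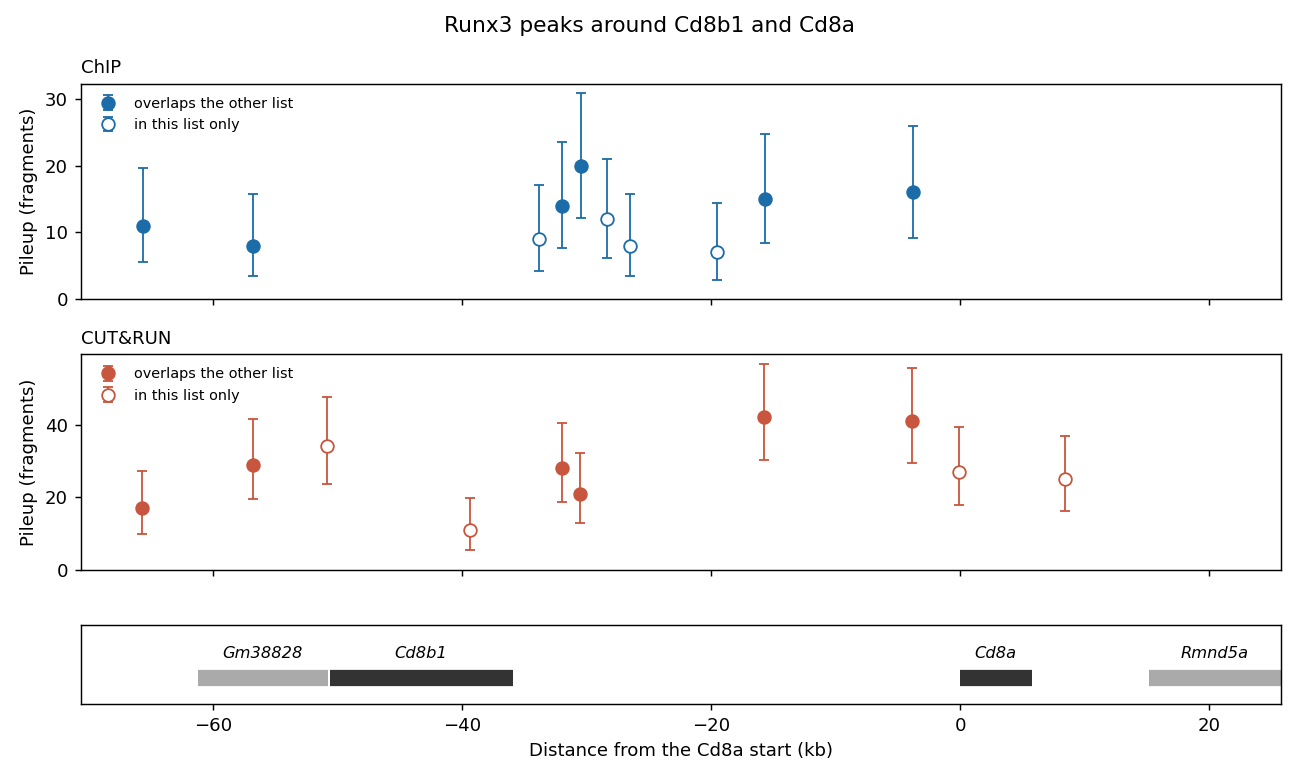
Pileup in fragments (y axis, with exact 95% Poisson intervals) of the 10 ChIP peaks (top) and 10 CUT&RUN peaks (bottom) against distance from the Cd8a start in kb (x axis), with gene spans below; the pileup axes differ. Filled points overlap a peak of the other list, and open points do not; the ChIP points crowd into the gap between the genes, while the CUT&RUN points also mark the starts of both genes.

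The pair nearest to the place of E8I held the highest CUT&RUN peak of the region, at 42 fragments against 41 in the next pair. By ChIP pileup it was 3rd of the 6 pairs. E8I is generally described as lying about 16 kb upstream of Cd8a, a rounded distance from the literature and not from the files. The ChIP summit at 71357739 and the CUT&RUN summit at 71357701 both lay 15.7 kb upstream of the Cd8a start, 38 bp from each other. The ChIP peak (chr6:71357578-71357839) had a pileup of 15 (8.40 to 24.7), a fold enrichment of 7.53 and rank 4212 of its list. The CUT&RUN peak (chr6:71357612-71357810) had a pileup of 42 (30.3 to 56.8), a fold enrichment of 18.1 and rank 3853. It lay wholly within the ChIP peak. No coordinates of the enhancers were given in the sources used here, so the pair is placed by distance alone.

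The next pair lay closer to Cd8a, in the upstream stretch where other enhancers of the locus are known to lie. Its ChIP summit at 71369621 was 3.81 kb from the Cd8a start and its CUT&RUN summit at 71369583 was 3.84 kb from it. The ChIP pileup was 16 (9.15 to 26.0), with a fold enrichment of 8.0 and rank 3612. The CUT&RUN pileup was 41 (29.4 to 55.6), with a fold enrichment of 17.8 and rank 4009. These values are close to those of the pair at 15.7 kb in both lists, and the intervals overlap almost entirely. In each list the summits of these pairs were 11882 bp apart, and in each pair the CUT&RUN summit lay 38 bp further from Cd8a. The ChIP peak was 454 bp wide and the CUT&RUN peak 199 bp, again wholly within it.

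The remaining pairs of the gap stood near the end of Cd8b1, 3.93 to 5.48 kb beyond it. At 71341421 in ChIP and 71341450 in CUT&RUN the pileups were 14 (7.65 to 23.5) and 28 (18.6 to 40.5), the ChIP fold enrichment was 7.06, and the ranks were 4868 and 8836. At 71342973 in ChIP and 71342900 in CUT&RUN they were 20 (12.2 to 30.9) and 21 (13.0 to 32.1). The second of these was the highest ChIP peak of the region, with a fold enrichment of 9.88 and rank 2202 of 13166, and among the lowest ranked CUT&RUN peaks of the region, rank 12765 of 15891. Its summits were 73 bp apart, the widest separation of the 6 pairs, and the CUT&RUN peak of 64 bp covered 13.8% of the 463 bp ChIP peak.

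The CUT&RUN peaks near the end of Cd8b1 had low fold enrichments for their pileups, 10.4 and 7.89. The expected background that their folds imply was 1.78 and 1.79 fragments, the highest of the 10 CUT&RUN peaks of the region, where it ranged from 0.664 to 1.79 and the list's median was 0.894. By pileup alone, 43.7% of CUT&RUN peaks were as high as the one at 71341450, and its rank by q stood at 55.6% of the list. CUT&RUN was called with no control, so its background was not measured apart from the Runx3 library itself. ChIP had the whole cell extract as control, so the backgrounds of the lists are unlike measures. In ChIP the implied background was 1.12 at all 10 peaks, as it was within 1% at 97.2% of the list. ChIP folds thus followed the pileup.

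On the far side of Cd8b1, 2 pairs lay away from either coreceptor gene. The pair at 71307765 in ChIP and 71307755 in CUT&RUN, 15.0 kb from the Cd8b1 start, had pileups of 11 (5.49 to 19.7) and 17 (9.90 to 27.2), fold enrichments of 5.65 and 10.4, and ranks of 7647 and 11521. The pair at 71316604 and 71316640 lay inside the span of the lncRNA gene Gm38828, 6.18 and 6.15 kb from the Cd8b1 start. Its ChIP pileup was 8 (3.45 to 15.8), with a fold enrichment of 4.24 and rank 12163 of 13166. Its CUT&RUN pileup was 29 (19.4 to 41.6), with a fold enrichment of 18.0 and rank 5309 of 15891. This pair was thus weak in its ChIP list and above the median of its CUT&RUN list, the reverse of the pair at 71342973.

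The 4 ChIP peaks with no CUT&RUN partner all lay in the part of the gap from the end of Cd8b1 to the pair at 15.7 kb, and none in the 11.9 kb between that pair and the pair nearer to Cd8a. Their summits lay at 71339589, 71345095, 71346922 and 71353893, with pileups of 9 (4.12 to 17.1), 12 (6.20 to 21.0), 8 (3.45 to 15.8) and 7 (2.81 to 14.4). The lowest equals the lowest pileup of the whole ChIP list, and their ranks ran from 49.4% to 98.8% of the list. From 71339589 to 71346922, 5 ChIP summits followed each other at distances of 1.55 to 2.12 kb. The CUT&RUN list had no summit for 14.8 kb between 71342900 and 71357701, a stretch that holds 3 of these ChIP peaks.

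At the starts of both coreceptor genes only CUT&RUN had a peak. These peaks were called with no control and were not compared with the normal serum library. The summit at 71322600 lay 188 bp before the start of Cd8b1 with a pileup of 34 (23.5 to 47.5), a fold enrichment of 17.4 and rank 4928. It also lay just inside the edge of the span of Gm38828, so the peak cannot be assigned to either gene by place. The summit at 71373367 lay 60 bp before the start of Cd8a, in the promoter printed above, with a pileup of 27 (17.8 to 39.3). The other CUT&RUN peaks without a ChIP partner were at 71334025 inside Cd8b1, with a pileup of 11 (5.49 to 19.7), and at 71381852, 2.68 kb beyond the end of Cd8a, with a pileup of 25 (16.2 to 36.9). The one inside Cd8b1 was near the foot of its list, rank 15769 of 15891, and 70 bp wide. Over the whole table, 10.1% of promoter windows held a ChIP summit and 14.2% a CUT&RUN summit, and some genes have several windows. Of the CUT&RUN peaks with the summit in a promoter window, 61.4% overlapped a ChIP peak, and of such ChIP peaks 76.3% overlapped a CUT&RUN peak.

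Overlap between the assays was, at this number of peaks, not distinguishable from that of the lists as a whole. In the region 6 of 10 ChIP peaks overlapped a CUT&RUN peak (60%, exact 95% Clopper-Pearson interval 26.2 to 87.8), against 66.2% of the ChIP list. The same 6 pairs, counted from the other side, gave 6 of 10 CUT&RUN peaks (60%, 26.2 to 87.8), against 58.8% of the CUT&RUN list. Summits of the 6 pairs lay 10 to 73 bp apart, with a median of 37 bp, against a median of 39 bp over all 9358 pairs. In 4 of the 6 pairs the CUT&RUN peak lay wholly within the ChIP peak, against 64.1% of all pairs.

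The peaks of the region were of middling height in both lists. Their pileups had a median of 11.5 and a range of 7 to 20 in ChIP, against a list median of 12, and a median of 27.5 and a range of 11 to 42 in CUT&RUN, against a list median of 25. The shared peaks of the region had median pileups of 14.5 in ChIP and 28.5 in CUT&RUN, and the others 8.5 and 26. Over the whole lists these medians were 14 and 33 for shared peaks, and 9 and 18 for the others. Within ChIP, none of the 45 possible pairings of the 10 peaks had separate pileup intervals. Within CUT&RUN, 5 of 45 pairings did. The peaks at 15.7 kb and 3.84 kb upstream of Cd8a stood above those at 71307755 and 71334025, and the peak at the Cd8b1 start stood above the one at 71334025.

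**Figure D2:**
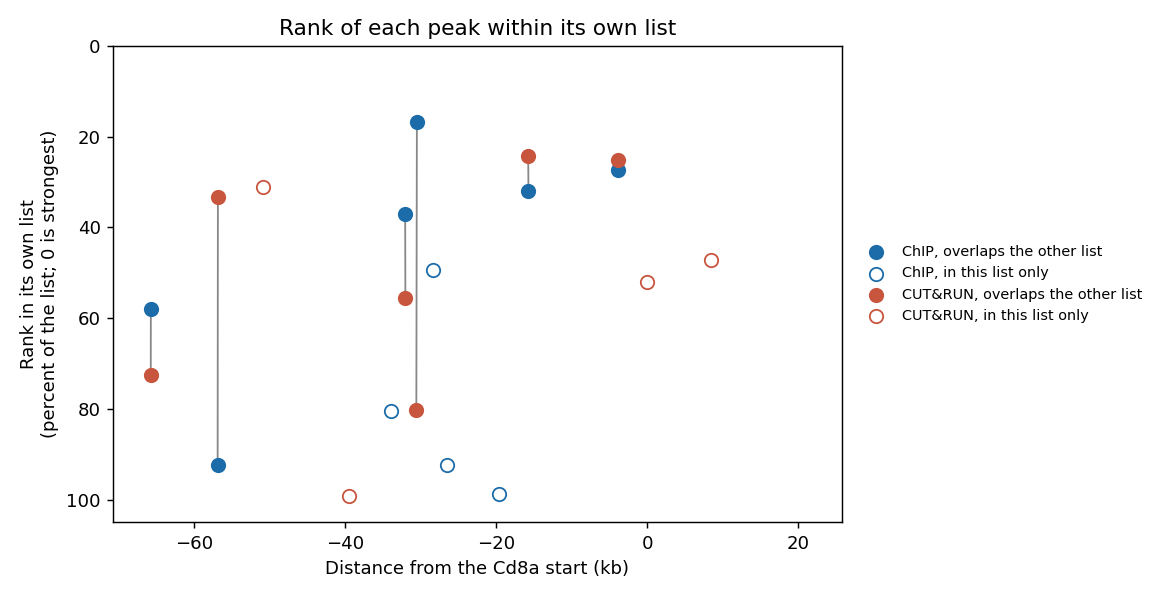
Rank of each of the 20 peaks as a percent of its own list (y axis, strongest at the top) against distance from the Cd8a start in kb (x axis), with grey lines joining overlapping pairs; blue is ChIP, orange is CUT&RUN, and open points have no partner. The pairs at 15.7 and 3.8 kb upstream of Cd8a ranked alike in both lists (24.2% to 32.0%), while the pairs at 71316604 and 71342973 ranked far apart.

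The region held more peaks than nearly all windows of its length. Of 27292 adjoining windows of the same length on the autosomes and X, 0.0843% held at least 10 ChIP summits, 0.165% held at least 10 CUT&RUN summits and 0.315% held at least 6 shared ChIP peaks. The median window held no summit in either list, and 76.3% of windows had no ChIP summit and 74.3% no CUT&RUN summit. These windows were laid without regard to genes, while the region was laid around its genes, so the shares serve as a scale and not as a test.

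**Figure D3:**
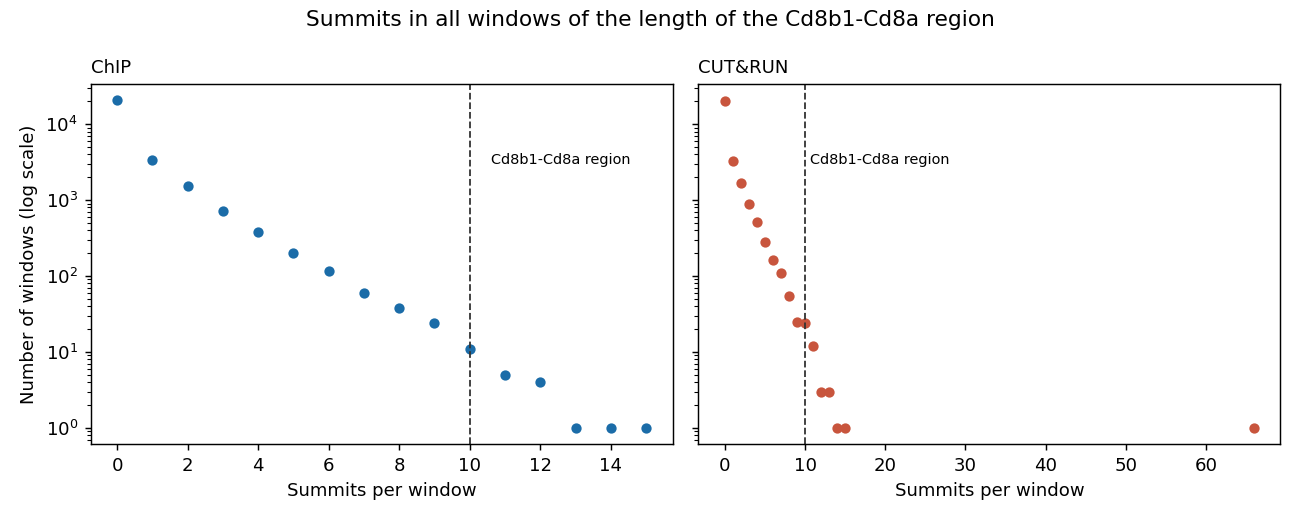
Number of windows of 96.4 kb (y axis, log scale) by the number of ChIP summits (left) or CUT&RUN summits (right) they held (x axis), over chromosomes 1 to 19 and X. The dashed line marks the 10 summits of the Cd8b1-Cd8a region, which 0.0843% of windows reached in ChIP and 0.165% in CUT&RUN.

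The gap between Cd8b1 and Cd8a carried 2.23 ChIP summits and 1.39 CUT&RUN summits per 10 kb, against 0.0358 and 0.0457 over all gaps between neighbouring protein-coding genes and 0.0794 and 0.0992 over the gaps of 0.5 to 2 times its length. At q of 1e-05 or less, the threshold of the CUT&RUN list, the 8 ChIP summits of the gap fell to 5, the same number as in CUT&RUN. Of the 19439 gaps, 0.17% held at least 8 ChIP summits and 0.957% at least 5 CUT&RUN summits. Among the 5720 gaps of 0.5 to 2 times its length, 0.0524% held at least 8 ChIP summits and 0.629% at least 5 CUT&RUN summits. Only 3 gaps make up that ChIP share, none with more than 8 summits. Besides the Cd8 gap of 35.9 kb they were the gap of 54.9 kb between Tns4 and Ccr7, which encodes a homing receptor of naive T cells, and the gap of 59.2 kb between Il10rb and Ifnar1, which encode chains of cytokine receptors. The Cd8 gap was the shortest of them. These neighbours were named after their values were seen. In CUT&RUN, 36 gaps of 0.5 to 2 times the length held at least 5 summits, and the fullest held 9. Shares of gaps were not computed at q of 1e-05 in ChIP.

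Both lists were empty for some distance on either side of the cluster, as was common in lists where 76.3% of the 96.4 kb windows held no ChIP summit and 74.3% no CUT&RUN summit. Outside the region, the next ChIP summit lay 36.0 kb before the earliest ChIP peak of the region and the next beyond it 71.0 kb after the last, at 71271748 and 71440574. In CUT&RUN these distances were 36.3 and 59.0 kb, to summits at 71271493 and 71440817. On each side the outer summits of both lists lay near a gene edge, that of Krcc1 on the Cd8b1 side and that of Rmnd5a on the Cd8a side.

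Counted per gene, Cd8b1 had more peaks within 20 kb than Cd8a. Cd8b1 had 8 ChIP and 6 CUT&RUN summits in its span and 20 kb on each side, numbers reached by 0.472% and 1.96% of 21627 protein-coding genes. Cd8a had 3 ChIP and 4 CUT&RUN summits, reached by 11.4% and 8.04%. Cd8a is the shorter gene, and the cluster at the Cd8b1 end of the gap lay beyond its 20 kb.

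The Cd8 region had more peaks than the loci of 2 other surface molecules of T cells, in stretches of unlike length, and its highest CUT&RUN peak was lower than theirs. With 20 kb on each side, Cd8b1 and Cd8a had 10 ChIP and 10 CUT&RUN peaks, with highest pileups of 20 (12.2 to 30.9) and 42 (30.3 to 56.8). Cd4, which encodes the helper lineage coreceptor and which Runx proteins are known to silence in CD8 T cells, had 2 ChIP and 3 CUT&RUN peaks, with highest pileups of 14 (7.65 to 23.5) and 80 (63.4 to 99.6). The Cd3e, Cd3d and Cd3g cluster, which encodes chains of the CD3 complex, had 6 and 7 peaks, with highest pileups of 88 (70.6 to 108) and 131 (110 to 155). These stretches were 96.4, 63.6 and 80.1 kb long, which gives 1.04, 0.315 and 0.749 ChIP peaks and 1.04, 0.472 and 0.874 CUT&RUN peaks per 10 kb. Median pileups were alike, at 11.5, 10.5 and 11 in ChIP and 27.5, 27 and 26 in CUT&RUN, in the order Cd8, Cd4 and CD3 cluster. In CUT&RUN the highest peaks of Cd4 and of the CD3 cluster thus had intervals above that of the Cd8 region, while in ChIP the highest Cd4 peak was lower, with an overlapping interval.

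Most genes of a list of regulators of the coreceptor genes, with Cd4 added, carried Runx3 peaks of their own. The list had 12 genes: Runx1, Runx3, Cbfb, Patz1, Ikzf1, Satb1, Bcl11b, Smarca4, Tcf7, Lef1, Zbtb7b and Cd4 itself. A summit lay within 10 kb of 10 of the 12 in ChIP, against 40.7% of all protein-coding genes, and of all 12 in CUT&RUN, against 45.6%. In all 10 with a ChIP peak, at least 1 ChIP peak overlapped a CUT&RUN peak. The list was drawn up with earlier results of these data known, and long genes have more room for peaks, so nothing particular to it follows from these counts.

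Among them, Ikzf1, which encodes the zinc finger factor Ikaros, had its best summits at chr11:11766278 in ChIP and 11766277 in CUT&RUN, 1 bp apart, with pileups of 54 (40.6 to 70.5) and 151 (128 to 177). Lef1 and Tcf7 encode related HMG-box factors of T cell development. Lef1 had 16 ChIP and 12 CUT&RUN peaks, with best pileups of 45 (32.8 to 60.2) and 141 (119 to 166) at different sites, chr3:131157604 in ChIP and 131208728 in CUT&RUN. Tcf7 had 7 and 3 peaks, with best pileups of 31 (21.1 to 44.0) and 90 (72.4 to 111). Satb1, a chromatin organiser, had 8 peaks in each list, with best pileups of 22 (13.8 to 33.3) and 52 (38.8 to 68.2). Bcl11b, a factor of T cell commitment, had 5 and 12 peaks, with best pileups of 25 (16.2 to 36.9) and 69 (53.7 to 87.3), again at different sites, chr12:107993212 in ChIP and 107964886 in CUT&RUN. Peaks at Smarca4, the gene of the remodelling ATPase BRG1, were lower, at 11 (5.49 to 19.7) and 31 (21.1 to 44.0).

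The genes without a ChIP peak were Patz1, which encodes MAZR, a repressor of the Cd8 genes, and Zbtb7b, whose product ThPOK directs the CD4 lineage. Each had 1 CUT&RUN peak, with pileups of 12 (6.20 to 21.0) and 18 (10.7 to 28.4). Runx3, Runx1 and Cbfb, the genes of the binding complex itself, had 2, 7 and 2 ChIP peaks and 3, 11 and 1 CUT&RUN peaks. The best pileups at Runx3, 58 (44 to 75) in ChIP and 180 (155 to 208) in CUT&RUN, were the highest of the 12 genes. At Runx1 they were 29 (19.4 to 41.6) and 94 (76 to 115), at different sites, chr16:92801768 in ChIP and 92641257 in CUT&RUN. At Cbfb they were 10 (4.8 to 18.4) and 16 (9.15 to 26), with summits at chr8:105171611 and 105170485.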

How the data were processed

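Runx3 occupancy was mapped in 1 ChIP and 1 CUT&RUN library. The submitters' processing notes name Bowtie, MACS2 and the mm10 build, and no Bowtie version was found in them. Peak calling used MACS 2.1.1.20160309 in paired-end mode, per the file headers, and kept at most 1 fragment per position. The whole cell extract was the control for ChIP (q of 0.05). CUT&RUN had no control (q of 1e-05), and its alignment is named for nucleosome-free fragments. The deposited lists hold, per peak, the pileup (a coverage signal at the summit), −log10 p and −log10 q values, and the fold enrichment, a ratio to the expected background. These are the authors' own values and served to describe and rank peaks within a list.

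Mean fragment size was 115 bp for ChIP and 63 bp for CUT&RUN. A peak missing from a list fell below that list's threshold and may still hold fragments. Ranks follow q, then pileup, then order in the file. Peaks of the lists were paired on an overlap of at least 1 bp, with counts checked in bedtools 2.31.1. Expected background was derived as pileup plus 1, divided by fold, minus 1. Other steps used Python 3.11.15 with pandas 2.3.3 and scipy 1.17.1, tested on simulated data. Gene spans and 32851 promoter windows were taken from RefSeq tables (GRCm38.p6). No genome sequence was used, so peaks in the gap were not searched for motifs; the promoter table was matched for Cd8a and not for Cd8b1.

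With 1 library per group no test was possible. Shares over all windows, gaps, genes or promoters are given as background. All 20 peaks of the region are described, with full values for the pairs and the best ranked peaks. The members and the gene list were chosen with earlier results of these data known. Alternatives covered the flank, the q threshold, the stronger part of each list, the overlap rule, the tiling, the gap length and the gene window.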

Additional observations from a re-analysis of the deposited data

How the results depend on the processing

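Of 34 alternatives run, 24 left a result within 1.5 times its count or within its interval, and 10 moved one further. Counts in the region depended most on how deep into each list peaks were taken. At q of 1e-05 or less, ChIP peaks in the region numbered 6 and those in the gap 5. In the stronger 0.5 of each list by rank, the region held 5 ChIP and 5 CUT&RUN peaks and the gap held 5 and 2. The share of windows with as many summits as the region was then 0.33% in ChIP and 0.469% in CUT&RUN. The share of gaps with as many summits as the Cd8 gap fell to 0.0524% in ChIP and 0.629% in CUT&RUN when gaps of 0.5 to 2 times its length were used, an alternative chosen after seeing the data. Shared peaks numbered 5 or 6 in each list under all 5 alternatives tried for them, the flanks of 10 and 50 kb among them. The stronger 0.5 of each list was not tried for them. By rank, only the pairs at 15.7 and 3.8 kb upstream of Cd8a had both peaks in it. No paired analysis was possible because each group holds 1 library. The ChIP pileups of the region, 7 to 20, had intervals wide enough to overlap that of every other ChIP peak of the region. An effect of depth on these heights was not tested.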
